A study of Mus musculus with 28 samples.

Results

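The hypothalamus and the motor cortex were compared by RNA-seq in 13 libraries from adult male mice of 3 genotypes at the Hdc gene, which encodes histidine decarboxylase, the enzyme that makes histamine. The libraries were chosen by their labelled tissue alone, 8 from hypothalamus (3 wild-type [WT], 3 heterozygous [het] and 2 knockout [KO]) and 5 from motor cortex (1 WT, 2 het and 2 KO), out of 28 in the series, whose other 15 came from dorsal and ventral striatum. All mice were 2 to 3 months old and on a C57Bl/6 background, and the het and KO mice carried a constitutive Hdc mutation, present in every cell and not limited to a region. Reads were counted over the exons of each gene, and the test took in the 14477 genes that exceeded 1 CPM (counts scaled to the library's total) in 2 or more of the 13 libraries. Levels below are CPM after TMM scaling, a correction for differences in library makeup, and a log2 fold change is hypothalamus over motor cortex, so that a negative value means a higher level in cortex. Calls were made with the edgeR likelihood ratio test, genotype being a covariate, where the p-value adjusted by Benjamini and Hochberg's method was under 0.05. Errors of log2 fold changes are approximate standard errors, the size of the change divided by the square root of the likelihood ratio statistic. They therefore restate the unadjusted p-value and are no separate measure of spread. The libraries held 3732822 to 4901109 counts on genes, which are reads without molecular identifiers.

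The motor cortex is a layered sheet in which most neurons are glutamatergic pyramidal cells that load their vesicles through Slc17a7 (VGLUT1), mixed with a smaller population of GABAergic interneurons. The hypothalamus is built of nuclei, small groups of neurons defined by the transcription factors that specified them and by the peptides they release into the brain, the pituitary or the blood. Its glutamatergic neurons use Slc17a6 (VGLUT2) in place of Slc17a7. The histamine neurons of the brain lie in its tuberomammillary nucleus and project widely, including to the cortex.

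The labels were checked against Hdc first. Hdc (ENSMUSG00000027360, chromosome 2, 126593667 to 126619299, minus strand, GRCm38) stood at 16.6, 20.7 and 18.4 CPM in the 3 WT hypothalamus libraries, at 15.8, 23.3 and 16.4 CPM in the 3 het libraries, and at 12.7 and 15 CPM in the 2 libraries labelled KO. In motor cortex it had no count in the WT library, 5.2 and 5.80 CPM in the het libraries, and 10.8 and 8.33 CPM in the libraries labelled KO. The libraries labelled KO were therefore the lowest in hypothalamus and the highest in cortex, and counts over the whole gene showed no loss of the transcript. These counts cannot tell whether a stretch of it is missing, since which exons the allele lacks is not given in the sources used here. Across genotypes Hdc was higher in hypothalamus by 1.71 ± 0.32 on the log2 scale (adjusted p = 5.4e-07, edgeR likelihood ratio test), and by 1.13 without the WT cortex library.

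The tissue labels were carried by the markers of each region. The hypothalamus markers Hcrt, Pmch and Oxt had no count in any cortex library, and Nkx2-1, Sim1, Otp and Avp had between 1 and 5 counts over all 5. Among the cortex markers, Emx1 had no count in 7 of the 8 hypothalamus libraries, while Slc17a7, Tbr1, Neurod6 and Neurod2 were present in all 8 at low levels. The KO hypothalamus library 8 stood apart from the rest of its region in cortical genes, with summed CPM of 33 cortical transcription factors of 2228 against 1345 to 1659 in the other 7 hypothalamus libraries and 5209 to 6063 in cortex. The het hypothalamus library 6 and the WT hypothalamus library 2 were the highest in 14 thalamic genes, at 1915 and 1678 summed CPM against 861 to 1391 in the other 6 and 381 to 466 in cortex, with the defining thalamic gene Gbx2 at 0 counts in all cortex libraries. In bulk tissue, fewer cells of a type and less RNA per cell cannot be told apart. How far neighbouring tissue in these 3 libraries bears on the differences below was not tested, and values without the KO library 8 are given for the fitted fold changes over all 13 libraries that it moved by more than 1.5 times.

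**Figure D1:**
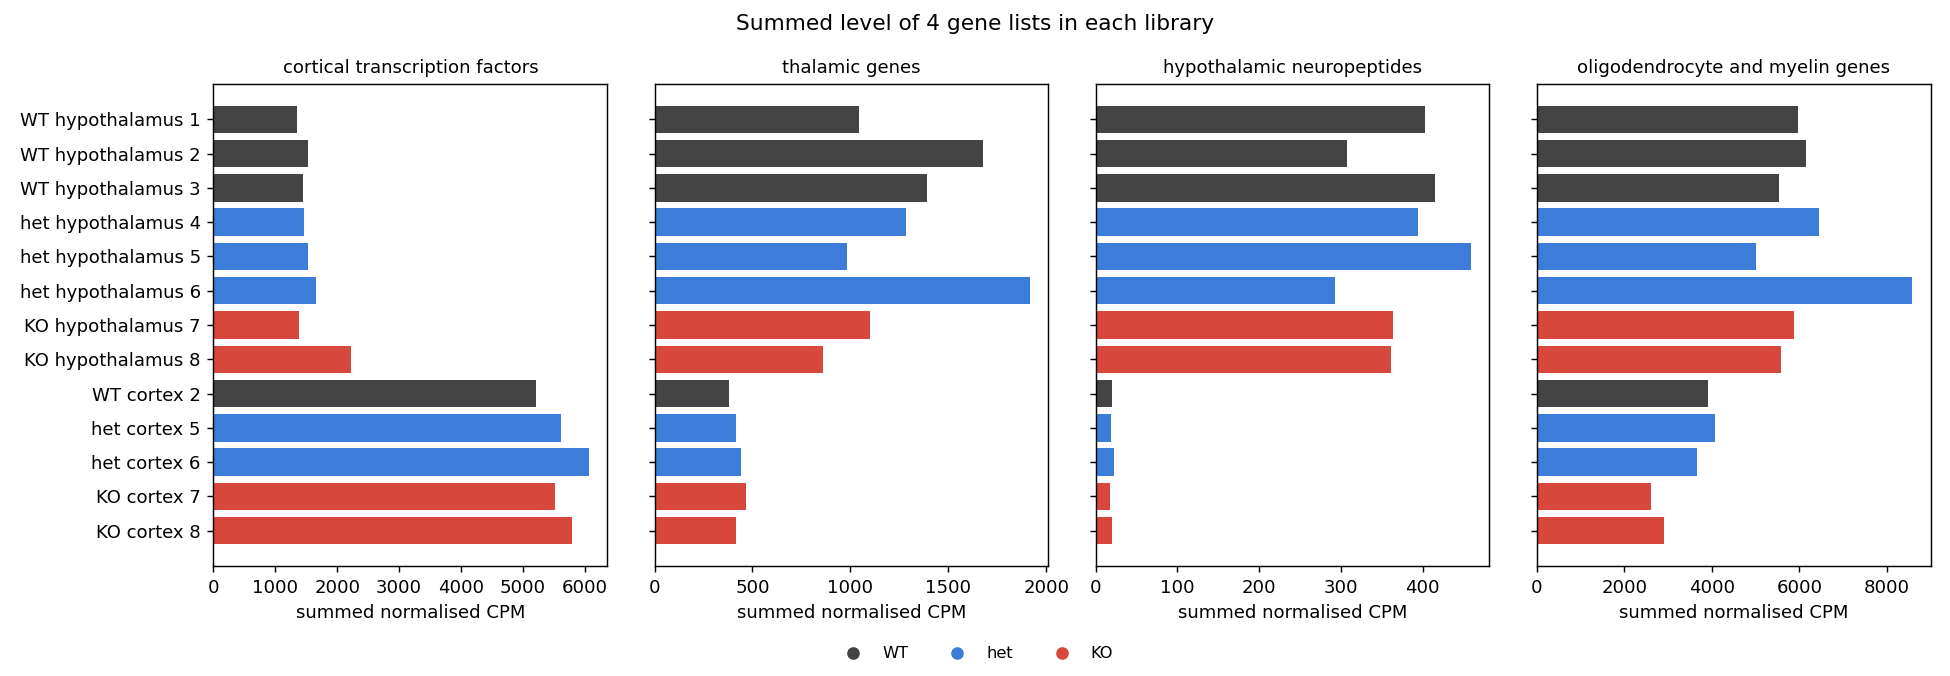
Summed normalised CPM (horizontal axes, each from 0) of the members of 4 gene lists in each of the 13 libraries, coloured by genotype. KO hypothalamus 8 reaches 2228 in cortical transcription factors, het hypothalamus 6 and WT hypothalamus 2 reach 1915 and 1678 in thalamic genes, and the peptide genes are at 18.3 to 22.4 in cortex against 292 to 459 in hypothalamus.

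Of the 14477 genes, 3981 (27.5%) were called higher in hypothalamus and 3483 (24.1%) higher in motor cortex. With a fold of at least 2 asked for as well, 1405 (9.71%) were higher in hypothalamus and 1079 (7.45%) in cortex. The libraries of the regions did not overlap for 2268 genes (15.7%) higher in hypothalamus and for 2267 genes (15.7%) higher in cortex. A total of 261 called genes were more than 8-fold higher in hypothalamus and 106 more than 8-fold higher in cortex. The median log2 fold change over all genes was 0.05. Hypothalamus took 53.3% of all calls under TMM scaling, and 73.8% (6245 against 2215) when libraries were scaled by size alone, which moved the median of all genes to 0.27. Among long noncoding RNAs, 7.79% of 411 genes were at least 2-fold higher in hypothalamus and 16.8% in cortex, whereas among 13834 protein coding genes the shares were 9.68% and 7.19%.

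Gene lists for cell types, transmitters and pathways are given below as counts. These are to be read against the 27.5% of all genes called higher in hypothalamus and 24.1% called higher in cortex. Some counts were near or below these shares. Among them were 4 of 24 endothelial and pericyte genes in each direction, 5 of 24 clock genes higher in hypothalamus and 8 of 28 secretory pathway genes higher in cortex. The peptide and transcription factor genes of the hypothalamus had the largest median differences on the hypothalamic side, and the cortical synapse and transcription factor genes had the largest on the other side. Oligodendrocyte genes shifted together by a small amount, and the lists for microglia, endothelial cells and glutamate receptors were centred near 0.

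**Figure D2:**
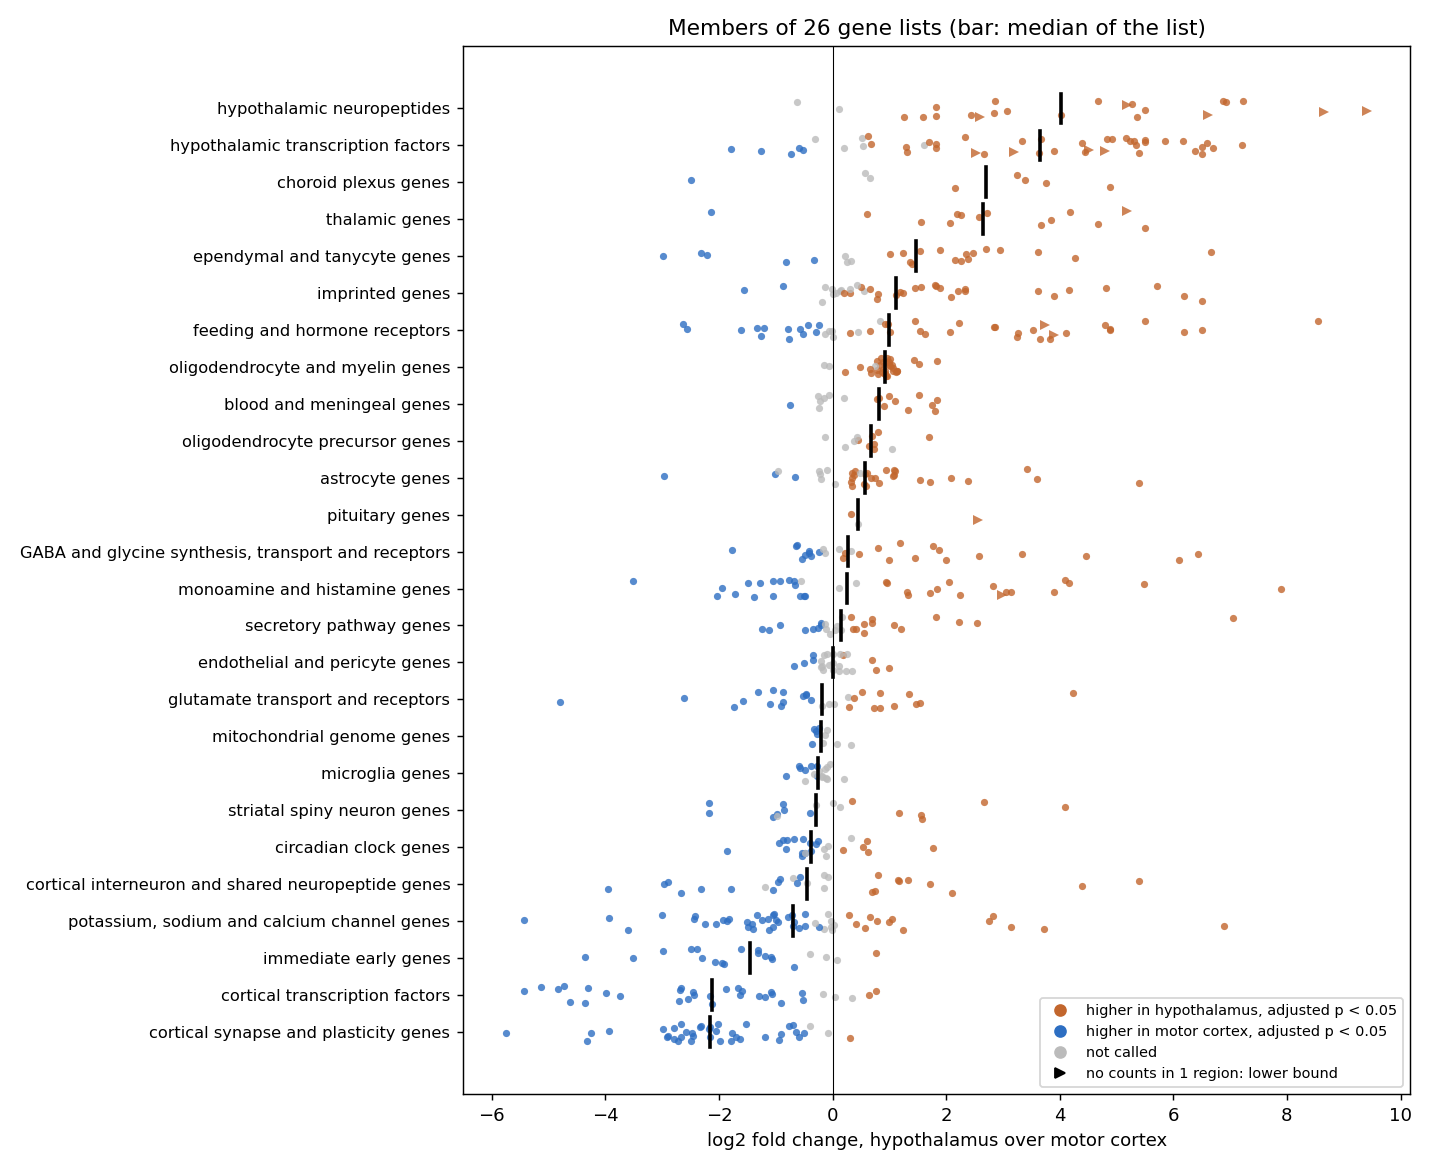
Log2 fold change of each tested member (points) of 26 gene lists, hypothalamus over motor cortex, with the median of each list as a bar. Orange and blue points were called higher in hypothalamus and in motor cortex, grey points were not called, and triangles are lower bounds for genes with no count in 1 region. With these bounds, medians run from -2.16 for cortical synapse and plasticity genes to 4.02 for hypothalamic neuropeptides.

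Peptide genes had the largest median difference of the lists. Of 23 hypothalamic neuropeptide genes tested, 21 were higher in hypothalamus and none higher in cortex, with a median log2 fold change of 4.67, or 4.02 when the 5 genes with no count in a region were set at their lower bounds, against 0.05 over all genes. The list held 30 genes, 29 of them in the count files, and those not tested were below the threshold on CPM. A gene with few or no counts in cortex could pass that threshold only through its hypothalamus libraries, so the direction of such genes was largely fixed by it. Pmch encodes the precursor of melanin-concentrating hormone, and Hcrt that of the orexins (hypocretins), the arousal peptides of the lateral hypothalamus. Oxt encodes oxytocin, made by the magnocellular neurons of the paraventricular and supraoptic nuclei. The sequence before the start was taken for these 3 genes and for Slc17a7, the leading cortical transporter gene. Pmch, Hcrt and Slc17a7 were among the 12 genes named for the largest folds in their direction, and Oxt was not. The 250 bases before the RefSeq start (GRCm38.p6) are written 5′ to 3′ on the gene's strand, at chr10:88090822-88091071 (plus) for Pmch, chr11:100762932-100763181 (minus) for Hcrt, chr2:130575919-130576168 (plus) for Oxt and chr7:45163671-45163920 (plus) for Slc17a7, and capitals mark the letters TATAAA, searched on both strands.
Pmch: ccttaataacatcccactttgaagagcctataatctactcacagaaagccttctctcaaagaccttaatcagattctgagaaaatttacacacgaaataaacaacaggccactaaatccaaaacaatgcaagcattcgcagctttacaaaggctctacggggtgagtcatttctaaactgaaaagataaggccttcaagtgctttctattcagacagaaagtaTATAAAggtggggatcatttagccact
Hcrt: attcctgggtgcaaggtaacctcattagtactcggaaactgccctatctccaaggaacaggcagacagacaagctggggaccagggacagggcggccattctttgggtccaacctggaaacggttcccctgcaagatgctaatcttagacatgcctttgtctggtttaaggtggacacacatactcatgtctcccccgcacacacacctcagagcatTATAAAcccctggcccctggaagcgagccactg
Oxt: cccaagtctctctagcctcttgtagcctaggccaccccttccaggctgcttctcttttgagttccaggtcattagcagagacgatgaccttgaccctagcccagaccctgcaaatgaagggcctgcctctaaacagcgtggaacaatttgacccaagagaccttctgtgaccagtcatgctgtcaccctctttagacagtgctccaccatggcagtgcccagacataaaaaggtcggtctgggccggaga
Slc17a7: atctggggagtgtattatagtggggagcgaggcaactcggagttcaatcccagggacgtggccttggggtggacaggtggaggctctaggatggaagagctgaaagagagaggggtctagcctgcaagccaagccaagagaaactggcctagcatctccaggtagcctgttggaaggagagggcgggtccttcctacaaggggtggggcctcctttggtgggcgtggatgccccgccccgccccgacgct
The motif began 27 bases before the start of Pmch and 33 bases before that of Hcrt, and was absent from these windows of Oxt and Slc17a7. It was present in 8 of the 20 neuropeptide genes with a RefSeq window (Adcyap1, Ghrh, Hcrt, Nppc, Npvf, Pmch, Pomc and Prok2), in 1 of 27 cortical synapse genes (Baiap2), in 5 of 27 cortical and 5 of 35 hypothalamic transcription factor genes, in 8.07% of the 11089 tested genes with a window and in 14.3% of all 27025 genes with one (12.4% of 32851 windows). A match of letters is a description and not a measured binding site.

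Pmch (ENSMUSG00000035383, chromosome 10, 88091072 to 88092375) ranged from 78.4 to 126 CPM in hypothalamus with a median of 113, and had 0 counts in each of the 5 cortex libraries. Hcrt (ENSMUSG00000045471, chromosome 11, 100761069 to 100762931) ranged from 47.5 to 82.2 CPM with a median of 62.3, and Oxt (chromosome 2) from 6.38 to 25.2 CPM with a median of 16.4, again with 0 counts in all cortex libraries. All 8 hypothalamus libraries therefore lay above all 5 cortex libraries for these genes, which for Pmch and Hcrt was part of a rule that chose them. The levels of Pmch and Hcrt varied by less than 2-fold among the 8. Against a floor of 3 counts over the 5 cortex libraries, Pmch was at least 681-fold, Hcrt at least 401-fold and Oxt at least 97.9-fold higher in hypothalamus. Per kilobase of exon, the mean level of Pmch in hypothalamus was 144 RPKM, against 84.7 for Hcrt, 28.4 for Oxt, 27.1 for Avp and 30.3 for Cartpt.

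Other peptide genes had a few counts in cortex. Avp, for vasopressin, ranged from 3.99 to 20.9 CPM in hypothalamus with a median of 17.6, and its 2 cortex counts both came from het library 6, giving a ratio of 148 (95% counting interval 40.9 to 1228). The het hypothalamus library 6 was the lowest for Avp at 3.99 CPM and next to the lowest for Oxt at 6.51 CPM, just above KO library 8. Gal, for galanin, ranged from 8.38 to 21.2 CPM against 1 count in cortex, a ratio of 245 (95% counting interval 43.7 to 9680). Cartpt, for the cocaine- and amphetamine-regulated transcript, a peptide that lowers feeding, ranged from 31.0 to 50.9 CPM with a median of 36.8, and stood at 1.02, 0.780, 1.38, 0 and 1.15 CPM in the cortex libraries (in the order WT, het, het, KO, KO, used below for every gene). Its log2 fold change was 5.51 ± 0.21 (adjusted p = 1.2e-142, edgeR), with no overlap. Trh, for thyrotropin-releasing hormone, ranged from 15.7 to 35.4 CPM against 1.53, 0.260, 0.829, 0.240 and 0.287 CPM, a log2 fold change of 5.28 ± 0.32.

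Genes of the arcuate nucleus were low. Pomc, the precursor of the satiety peptide alpha-MSH, ranged from 4.10 to 8.36 CPM against 0, 0, 0.553, 0.240 and 0.287 CPM, a log2 fold change of 4.67 ± 0.44 that rose to 5.26 without het cortex library 6. Agrp, which opposes it at the melanocortin receptors and drives feeding, ranged from 0.708 to 2.15 CPM with a median of 1.27, and the regions overlapped because KO cortex library 7 stood at 0.720 CPM. Agrp was still called (1.83 ± 0.53, adjusted p = 0.0017, edgeR), and its log2 fold change was 2.46 without that library. Ghrh, the growth hormone-releasing hormone gene, ranged from 2.23 to 4.58 CPM against 1 count in cortex, a ratio of 63.5 (95% counting interval 11.2 to 2527).

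Several peptides shared by both regions were higher in cortex. Among 27 interneuron and shared peptide genes, 10 were higher in hypothalamus and 11 in cortex (median -0.45). Npy, the neuropeptide Y gene, ranged from 13 to 37.8 CPM in hypothalamus with a median of 22.0, and stood at 104, 119, 125, 130 and 99.7 CPM in cortex, a log2 fold change of -2.32 ± 0.13 (adjusted p = 3.3e-73, edgeR). Npy is known for its feeding neurons in the arcuate nucleus, and in cortex for a class of interneurons. Cck, for cholecystokinin, ranged from 14.5 to 38.0 CPM against 154, 180, 172, 195 and 150 CPM (-2.89 ± 0.14), and Vip from 0.401 to 5.19 CPM against 14.3, 16.9, 14.9, 14.7 and 20.7 CPM (-2.96 ± 0.37). For all 3 every cortex library lay above every hypothalamus library. Sst, for somatostatin, differed less, at 29.4 to 42.0 CPM against 60.2, 57.7, 44.5, 46.8 and 57.7 CPM (-0.58 ± 0.11), and Crh, the corticotropin-releasing hormone gene, was at most 2.49 CPM in any library and was not called (-0.69 ± 0.46, adjusted p = 0.21, edgeR), but was called higher in cortex without the WT cortex library (-1.43). Pvalb, the marker of fast-spiking interneurons, ranged from 21.9 to 69.1 CPM, highest in het library 6, against 63.9 to 78.8 CPM, with overlap (-1.04 ± 0.19). Lamp5 had the largest difference toward cortex in the list (-3.96 ± 0.21), and Calb2, the calretinin gene, the largest toward hypothalamus, at 142 to 188 CPM against 2.04, 3.12, 3.87, 4.80 and 5.74 CPM (5.39 ± 0.14).

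The machinery that packages peptides did not follow the peptides as a block. Of 28 secretory pathway genes, 13 were higher in hypothalamus and 8 in cortex, with a median of 0.15. Scg2, a secretogranin of dense-core vesicles, was at 532 to 760 CPM in hypothalamus and at 128, 136, 142, 130 and 145 CPM in cortex (2.23 ± 0.09), and Resp18 at 135 to 191 against 26.8, 33.5, 26, 28.6 and 27.0 CPM (2.55 ± 0.11). Neither gene had overlapping libraries. Chga, for chromogranin A, differed by 0.32 ± 0.07 only, and Pcsk1, for the convertase that cleaves peptide precursors, by 0.35 ± 0.10. Baiap3, which acts in dense-core vesicle traffic, had the largest difference in the list, with 56.3 to 103 CPM against 0, 1.30, 0.276, 0.720 and 0.574 CPM (7.06 ± 0.26). Cadps2, another dense-core vesicle priming gene, had the largest in the other direction, with 48.8 to 69.0 CPM against 138, 136, 146, 116 and 138 CPM (-1.24 ± 0.09).

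The transcription factors that lay out the hypothalamus were higher there in 36 of 46 cases and higher in cortex in 5, with a median of 4.15 (3.65 with 4 genes at their lower bounds). As with the peptides, members with few or no counts in cortex could pass the threshold on CPM only through hypothalamus libraries. Their direction was largely fixed by it. Otp, which specifies neuroendocrine neurons of the paraventricular nucleus together with Sim1, ranged from 16.8 to 44.2 CPM in hypothalamus with a median of 29.2, and stood at 0.255, 0, 0.829, 0.240 and 0 CPM in cortex. Its log2 fold change was 6.69 ± 0.37, and 7.56 without het cortex library 6. Sim1 ranged from 5.67 to 16.1 CPM against 3 counts in cortex, a ratio of 71.8 (95% counting interval 24.4 to 349.8), and was lowest in het library 6. Nkx2-1, the regional selector of the ventral hypothalamus, ranged from 9.57 to 15.9 CPM against 1 count (ratio 232, 95% counting interval 41.5 to 9194). Six6 (1.68 to 5.43 CPM) and Nr5a1 (2.73 to 9.35 CPM), the marker of the ventromedial nucleus, had no count in cortex and were at least 22.8-fold and 27.7-fold higher. Isl1 and Onecut3 followed at 5.40 ± 0.40 and 4.84 ± 0.50. Isl1 was not particular to hypothalamus among the regions of the series. Scaled over all libraries, its medians were 14.24 CPM in dorsal striatum, 11.66 CPM in ventral striatum and 10.43 CPM in hypothalamus. Those of Onecut3 were 0, 0.129 and 5.91 CPM. Lhx6, which marks GABAergic neurons in both regions, was the largest exception, at 2.31 to 11.2 CPM against 14.3, 18.2, 14.4, 14.9 and 14.4 CPM (-1.79 ± 0.26).

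Several further genes had some of the largest folds toward hypothalamus. Irs4, an insulin receptor substrate, ranged from 44.5 to 97.7 CPM in hypothalamus against 3 counts in cortex, a ratio of 449.5 (95% counting interval 153.6 to 2181). Shox2, a homeobox factor also used in thalamus, ranged from 13 to 50.0 CPM and was highest in het library 6 and WT library 2, with no count in cortex (at least 180-fold higher). Gpr101, an orphan receptor on the X chromosome, ranged from 57.1 to 95.3 CPM against 0.511, 1.04, 0.553, 0 and 0.574 CPM (7.08 ± 0.24), and Arhgap36 from 37.6 to 68.0 CPM against 0.255, 0.520, 0.276, 0.960 and 0 CPM (7.05 ± 0.27). Sytl4, a granule-docking protein gene, ranged from 11.9 to 28.3 CPM against 3 cortex counts (ratio 114, 95% counting interval 38.7 to 553). Lack of overlap between regions was part of the rule that chose these genes. A low level in cortex did not make each of them particular to hypothalamus. Scaled over all libraries of the series, median Gpr101 was 82.55 CPM in ventral striatum and 71.77 CPM in hypothalamus. Median Irs4 was 6.04 and 63.65 CPM.

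**Figure D3:**
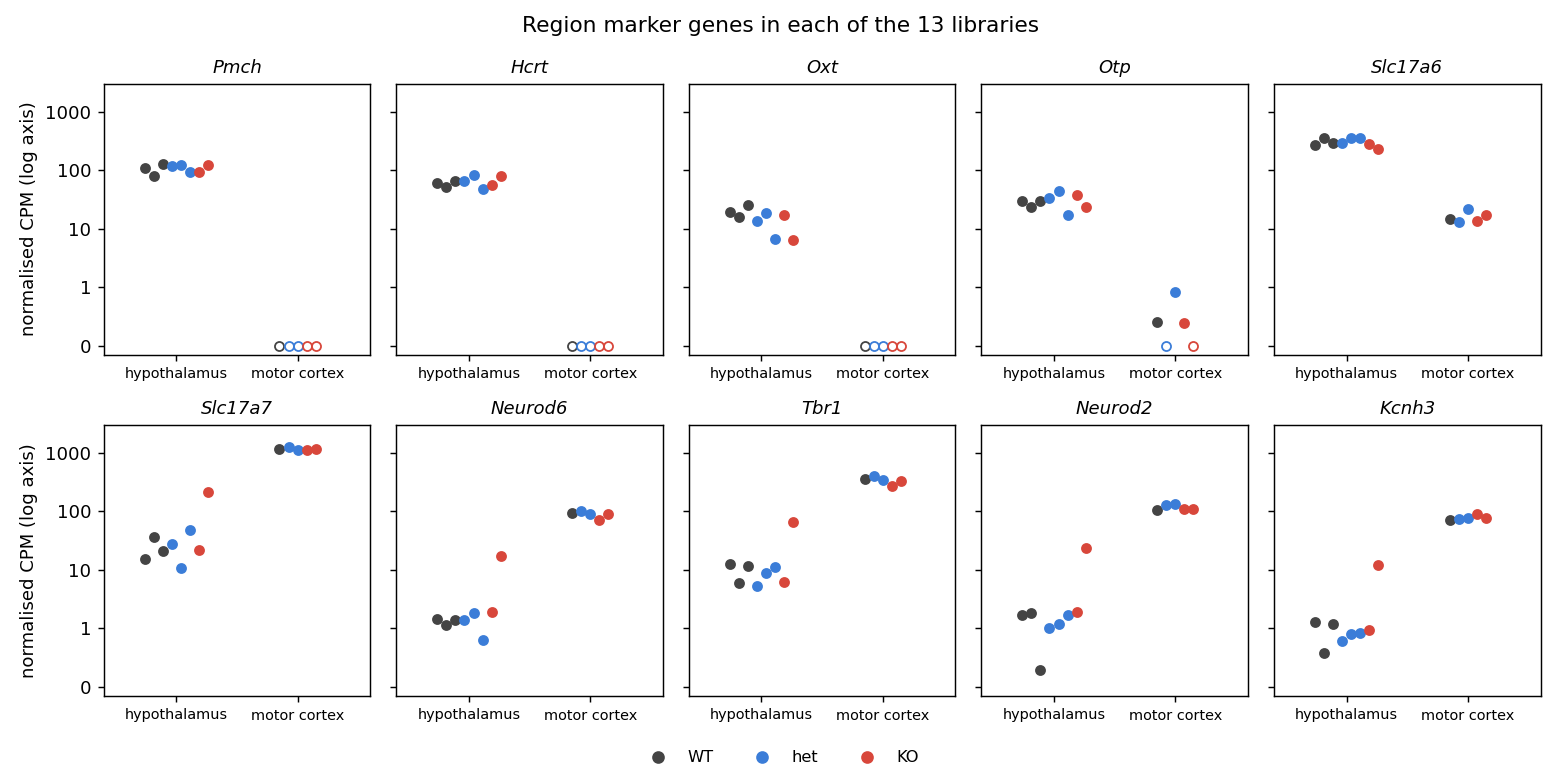
Normalised CPM (log axis, the same in every panel) of 10 genes in each library, coloured by genotype, with open circles at the bottom for libraries without a count. Pmch, Hcrt and Oxt have no count in the 5 cortex libraries, and among the hypothalamus libraries KO library 8 is the highest in the lower row, at 210 CPM for Slc17a7 and 23.7 CPM for Neurod2.

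On the cortical side, 28 of 33 cortical transcription factor genes were higher in motor cortex and 2 higher in hypothalamus, with a median of -2.12. Tbr1, which specifies deep-layer pyramidal neurons, ranged from 5.21 to 65.8 CPM in hypothalamus with a median of 10, and stood at 357, 404, 349, 268 and 334 CPM in cortex. KO library 8 was the highest hypothalamus library and still lay below every cortex library, a lack of overlap that was part of a rule that chose Tbr1. The log2 fold change of Tbr1 was -4.63 ± 0.40, and -5.40 without KO library 8. The basic helix-loop-helix genes Neurod2 and Neurod6 of pyramidal neurons fell in the same range, at -5.43 ± 0.52 and -5.14 ± 0.44, or -6.41 and -6.05 without that library. Neurod6 was at 0.630 to 1.89 CPM in 7 hypothalamus libraries, at 17.5 CPM in KO library 8, and at 92.9, 103, 89.0, 72.0 and 90.2 CPM in cortex. Emx1, the marker of the dorsal telencephalon, had 3 counts in hypothalamus, all from KO library 8, against 1.53, 2.60, 4.42, 3.60 and 4.59 CPM, a ratio of 42.7 in favour of cortex (95% counting interval 13.9 to 212). Without that library Emx1 had no count in hypothalamus. The upper-layer gene Cux2 differed by less, at 63.0 to 86.9 CPM against 88.1, 107, 175, 196 and 152 CPM (-0.90 ± 0.13).

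Synapse genes of the cortex were also mostly higher there than in hypothalamus. Of 40 cortical synapse and plasticity genes, 37 were higher in cortex, 1 (Ntrk2, for the BDNF receptor, 0.30 ± 0.07) higher in hypothalamus, and the median was -2.16. Not all were particular to cortex. Scaled over all libraries of the series, median Itpka was 54.3 CPM in dorsal striatum and 52.8 CPM in motor cortex. Nptx1 was at 24 and 555.5 CPM, and the factor Tbr1 at 2.11 and 324.5 CPM. Nrgn, for neurogranin, which holds calmodulin in dendritic spines, ranged from 34.2 to 242 CPM in hypothalamus with a median of 43.2, and stood at 1058, 1268, 1265, 1295 and 1178 CPM in cortex (-4.25 ± 0.29). Camk2a, for the alpha subunit of calmodulin kinase II, ranged from 595 to 1406 CPM with a median of 636, against 4485, 5090, 5378, 6278 and 4920 CPM (-2.79 ± 0.14). The highest hypothalamus value of each was again that of KO library 8, and no hypothalamus library reached the cortex libraries. Rtn4rl2, which encodes a Nogo receptor family member, had the largest difference of the list, at 0 to 0.629 CPM in 7 hypothalamus libraries and 7.97 CPM in KO library 8, against 39.3, 45.8, 38.4, 50.9 and 37.9 CPM (-5.75 ± 0.58, and -7.33 without KO library 8). Itpka, an inositol trisphosphate kinase of spines, differed by -4.32 ± 0.31 (-4.91 without it) and Nptx1, a neuronal pentraxin, by -2.17 ± 0.13. Bdnf, for the growth factor itself, ranged from 5.70 to 12.1 CPM against 11.7, 7.28, 8.57, 15.1 and 12.1 CPM and was not called (-0.40 ± 0.20, adjusted p = 0.09, edgeR), but was called higher in cortex without het hypothalamus library 5 (-0.53) or het cortex library 5 (-0.56).

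Further genes with the largest folds toward cortex were less familiar. Serpinb8, a protease inhibitor, had 0 to 0.683 CPM in hypothalamus against 6.89, 8.58, 13, 13 and 12.1 CPM (-5.36 ± 0.32). Its log2 fold change stayed between -5.76 and -5.14 when single libraries were left out. Ankrd33b differed by -4.67 ± 0.33 (-5.41 without KO library 8), Vipr1, a receptor for VIP, by -4.57 ± 0.39 (-5.81), Dkkl1 by -4.55 ± 0.33 (-5.77) and Robo3, an axon guidance receptor, by -4.34 ± 0.28 (-5.13). These genes too were chosen for a lack of overlap between regions. Scaled over all libraries of the series, median Ankrd33b was 51.8 CPM in dorsal striatum and 69.46 CPM in motor cortex. Vipr1 was at 11.08 and 16.1 CPM. Serpinb8 (0.227 and 11.34 CPM), Dkkl1 (0.227 and 16.58 CPM) and Robo3 (1.91 and 10.54 CPM) were lower in dorsal striatum.

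The vesicular glutamate transporters split between the regions. Slc17a7 (ENSMUSG00000070570, chromosome 7, 45163949 to 45176142) ranged from 10.9 to 210 CPM in hypothalamus with a median of 24.7, and stood at 1181, 1277, 1132, 1116 and 1141 CPM in cortex. The 7 hypothalamus libraries other than KO library 8 were at 48.3 CPM or less, and the log2 fold change was -4.79 ± 0.42 (adjusted p = 5.8e-29, edgeR), or -5.53 without that library. Slc17a6 (ENSMUSG00000030500, chromosome 7, 51622006 to 51671119) ranged from 232 to 356 CPM with a median of 292, against 14.8, 13, 21.8, 13.2 and 16.9 CPM, a log2 fold change of 4.23 ± 0.12 (adjusted p = 3.9e-254, edgeR). Per kilobase, mean Slc17a6 in hypothalamus was 56.1 RPKM and mean Slc17a7 in cortex 217 RPKM. Of 29 genes for glutamate transport and receptors, 11 were higher in hypothalamus and 14 in cortex, with a median of -0.18, or 0.05 with libraries scaled by size alone. The NMDA receptor subunits Grin2a (-2.61 ± 0.13) and Grin2b (-1.31 ± 0.09) were higher in cortex, at 18.6 to 41.2 CPM against 158, 157, 139, 170 and 165 CPM for Grin2a. Grm2, a presynaptic metabotropic receptor, was also higher in cortex (-1.05 ± 0.12).

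Genes for GABA and glycine differed by receptor subunit. Of 28 tested, 15 were higher in hypothalamus and 9 in cortex (median 0.27). Gad2, which makes the vesicular pool of GABA, ranged from 445 to 553 CPM in hypothalamus, against 167, 210, 213, 172 and 193 CPM (1.45 ± 0.07), with no overlap. Gad1, its partner enzyme, was at 170 to 224 CPM against 210, 218, 237, 171 and 225 CPM and was not called (-0.13 ± 0.08, adjusted p = 0.16, edgeR), but was called higher in cortex without KO hypothalamus library 8 (-0.19) or KO cortex library 7 (-0.19). Slc32a1, the vesicular GABA transporter, followed Gad2 in direction (0.81 ± 0.10). The GABA-A theta subunit gene Gabrq ranged from 73.1 to 122 CPM against 0.511, 0.780, 2.21, 0.480 and 1.72 CPM (6.44 ± 0.21), and the epsilon subunit gene Gabre from 16.6 to 35.4 CPM against 0, 0.520, 0.276, 0.240 and 0.574 CPM (6.10 ± 0.33). Gabrd, whose delta subunit serves tonic inhibition, was in the opposite direction, at 2.98 to 8.19 CPM against 17.9, 16.4, 23.5, 21.6 and 18.1 CPM (-1.77 ± 0.19).

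Monoamine genes were called in both directions. Of 36 tested, 17 were higher in hypothalamus and 16 in cortex (median 0.26). Ddc, the last enzyme of dopamine and serotonin synthesis, ranged from 15.9 to 37.4 CPM in hypothalamus against 0.766, 1.82, 3.04, 0.960 and 2.01 CPM (3.89 ± 0.28), and Slc18a2, the vesicular monoamine transporter, from 36.6 to 80.2 CPM against 8.68, 8.58, 9.68, 6.24 and 7.47 CPM (2.82 ± 0.18). Slc6a3, the dopamine transporter, varied widely within hypothalamus, at 57.0, 105 and 9.0 CPM in the WT hypothalamus libraries, 85.2, 2.79 and 147 CPM in the het libraries, and 108 and 22.3 CPM in the KO libraries, against 0 to 0.520 CPM in cortex (7.90 ± 0.86). Its high and low libraries were found in every genotype. No gene list covered midbrain tissue, and how far neighbouring tissue bears on Slc6a3 was not tested. Lack of overlap between regions was part of a rule that chose Slc6a3. Drd2, the D2 receptor gene, was higher in hypothalamus (25.4 to 49.4 CPM against 2.81, 1.82, 1.38, 1.92 and 2.58 CPM, 4.10 ± 0.24), and Drd1 higher in cortex (-1.04 ± 0.26). The serotonin receptors split as well, with Htr2c at 48.2 to 61.6 CPM against 6.64, 5.2, 4.98, 5.28 and 9.48 CPM (3.14 ± 0.14) and Htr2a at 6.76 to 17.8 CPM against 35.7, 41.9, 37.3, 41.3 and 45.7 CPM (-1.95 ± 0.14). The adrenergic receptor gene Adra1d had the largest difference toward cortex of this list (-3.51 ± 0.25).

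Of 3 further histamine genes, Hnmt and Hrh3 were higher in cortex and Hrh1 was not called. Hnmt, the methyltransferase that clears histamine, ranged from 6.93 to 10.6 CPM in hypothalamus against 12.2, 15.1, 12.7, 10.6 and 13.5 CPM (-0.51 ± 0.14), and was no longer called under 1 alternative analysis. Hrh3, the presynaptic H3 receptor, ranged from 77.9 to 98.0 CPM against 126, 108, 105, 126 and 141 CPM, without overlap (-0.48 ± 0.08, adjusted p = 5.5e-08, edgeR). Hrh1, the H1 receptor gene, was at 7.14 to 15.5 CPM against 9.19, 10.1, 11.3, 8.16 and 9.48 CPM and was not called (0.11 ± 0.19, adjusted p = 0.67, edgeR).

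Receptors for hormones and feeding signals were higher in hypothalamus in 27 of 46 cases and higher in cortex in 13 (median 0.99). Prlr, the prolactin receptor gene, ranged from 28.5 to 48.0 CPM against 2.04, 1.56, 0.829, 0.720 and 0.862 CPM (4.89 ± 0.24). Calcr, for the calcitonin receptor that also binds amylin with its partner proteins, ranged from 11.2 to 23.3 CPM against 3 counts (ratio 107, 95% counting interval 36.4 to 520.0). Esr1, the estrogen receptor alpha gene, ranged from 5.96 to 11.3 CPM against 0, 2.08, 0.829, 0.720 and 1.15 CPM (3.25 ± 0.30). For these genes all hypothalamus libraries were above all cortex libraries, which for Calcr was part of a rule that chose it. Scaled over all libraries of the series, median Calcr was 17.04 CPM in ventral striatum and 16.04 CPM in hypothalamus. Median Esr1 was 3.12 and 8.69 CPM. The leptin receptor gene Lepr was low in both regions, at 2.93 to 4.56 CPM against 0.766, 1.82, 1.38, 3.36 and 2.87 CPM, with overlap (0.97 ± 0.26, adjusted p = 0.00044, edgeR), and Mc4r was not called at 0.745 to 2.98 CPM against 0 to 2.04 CPM (0.84 ± 0.43, adjusted p = 0.092, edgeR), but was called higher in hypothalamus without WT hypothalamus library 2 (0.97) or the WT cortex library (1.30). Toward cortex, Cckbr, the brain receptor for cholecystokinin, differed by -2.64 ± 0.15 and Crhr1, the receptor for corticotropin-releasing hormone, by -1.62 ± 0.15. The mineralocorticoid receptor gene Nr3c2 differed by -0.43 ± 0.10 and lost its call under 1 alternative.

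Imprinted genes, which are expressed from 1 parental copy in at least some tissues, were called higher in hypothalamus in 25 of 37 cases. Of the rest, 2 were called higher in cortex (Cobl and Ppp1r9a), and the median was 1.12. Whether each was expressed from 1 copy in these regions was not tested. Calcr, described above among the hormone receptors, is also a member and had the largest rise of the list. Nnat, for neuronatin, ranged from 279 to 398 CPM in hypothalamus with a median of 342, and stood at 8.68, 15.6, 10.2, 15.1 and 11.2 CPM in cortex (4.82 ± 0.12). Magel2 and Ndn, neighbours in the region whose human counterpart is lost in Prader-Willi syndrome, differed by 5.72 ± 0.32 and 2.33 ± 0.11. Ndn was at 296 to 447 CPM against 66.4, 84.5, 77.7, 65.1 and 67.8 CPM, and Magel2 at 14.9 to 35.6 CPM against 0.255, 0.520, 0.829, 0 and 0.574 CPM. Peg3, a zinc finger gene expressed from the paternal copy, ranged from 1530 to 2044 CPM against 560, 515, 444, 457 and 481 CPM (1.82 ± 0.09), and its neighbour Zim1 from 15.7 to 26.1 CPM against 0.511, 0.780, 1.94, 0.960 and 1.15 CPM (4.17 ± 0.23). None of these genes had overlapping libraries. Meg3, a noncoding RNA of the Dlk1 cluster, was level, at 18.7 to 39.0 CPM against 39.1, 23.1, 23.8, 26.2 and 33.9 CPM (-0.01 ± 0.13, adjusted p = 0.95, edgeR). Cobl, an actin nucleator gene, was at 66.0 to 105 CPM against 224, 222, 244, 266 and 225 CPM (-1.56 ± 0.08).

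Ion channel genes were mostly higher in cortex, 32 of 52 against 13 higher in hypothalamus (median -0.70). Kcnh3, a forebrain potassium channel gene, was at 0.372 to 1.26 CPM in 7 hypothalamus libraries and at 11.8 CPM in KO library 8. In cortex it stood at 71.2, 73.6, 75.5, 91.0 and 78.1 CPM (-5.44 ± 0.41, and -6.43 without KO library 8). Kcnj5, for an inwardly rectifying channel opened by G proteins, was the largest in the other direction, at 7.56 to 10.9 CPM against 1 cortex count (ratio 183, 95% counting interval 32.6 to 7231). The regions did not overlap for either gene, which for Kcnh3 was part of a rule that chose it. Kcnh3 was not particular to cortex. Scaled over all libraries of the series, its medians were 65.06 CPM in dorsal striatum, 33.27 CPM in ventral striatum and 70.2 CPM in motor cortex.

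Genes that respond to neuronal activity were higher in cortex in 16 of 20 cases and higher in hypothalamus in 1 (Sik1, 0.76 ± 0.18), with a median of -1.46. Egr3 ranged from 1.12 to 15.3 CPM in hypothalamus, highest in KO library 8, against 54.1, 56.2, 64.4, 98.9 and 65.5 CPM (-4.35 ± 0.32, and -5.01 without that library). Nr4a1 ranged from 8.02 to 23.9 CPM against 109, 74.1, 83.2, 59.5 and 54.9 CPM (-2.30 ± 0.18), and Npas4 from 2.83 to 12.1 CPM against 23.0, 20.5, 31.5, 18.5 and 35.0 CPM (-1.95 ± 0.22). Fos was not called, at 2.83 to 24.3 CPM against 12.2, 13, 14.4, 5.52 and 10.3 CPM (-0.39 ± 0.28, adjusted p = 0.24, edgeR). Among 24 clock genes 5 were higher in hypothalamus and 14 in cortex (median -0.39), with Npas2, a partner of BMAL1 in forebrain, at 15.6 to 24.1 CPM against 65.9, 60.9, 77.4, 82.4 and 73.5 CPM (-1.86 ± 0.10). Fbxl21, which acts on cryptochrome stability, was the largest in the other direction (1.77 ± 0.19). Of 2 genes whose levels cycle over the day, Per2 differed by -0.39 and lost its call under 1 alternative, and Dbp was not called (-0.08).

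Among glia, 33 of 36 oligodendrocyte and myelin genes were higher in hypothalamus and none higher in cortex, with a median of 0.93. Mbp, for myelin basic protein, ranged from 1295 to 2328 CPM in hypothalamus, highest in het library 6, against 1041, 1129, 1046, 690 and 746 CPM (0.78 ± 0.11), and Mobp differed by 0.92 ± 0.11. The 2 cortex libraries labelled KO were the lowest of the 13 for Mbp and Mobp. The lineage factors Olig2 and Sox10 differed by similar amounts, 0.96 ± 0.11 and 0.99 ± 0.12, and 7 of 12 precursor genes were higher in hypothalamus (median 0.68), Pdgfra by 0.65 ± 0.09. Without KO library 8, het library 6 and WT library 2 together, the median of the oligodendrocyte list was 0.77.

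Astrocyte genes were higher in hypothalamus in 25 of 35 cases and higher in cortex in 3 (median 0.57). Agt, for angiotensinogen, ranged from 73.3 to 136 CPM in hypothalamus, lowest in KO library 8, against 1.79, 2.34, 3.59, 4.32 and 1.15 CPM (5.39 ± 0.18). Gfap ranged from 57.6 to 103 CPM against 17.9, 19.5, 30.1, 20.9 and 6.89 CPM (2.09 ± 0.18), and Aqp4, the water channel of astrocyte endfeet, differed by 1.08 ± 0.09. The 3 genes toward cortex were Slc1a2, the main glutamate transporter of astrocytes, at 3145 to 4412 CPM against 6904, 7957, 7853, 7270 and 7501 CPM (-1.02 ± 0.08), Mfge8 (-0.66 ± 0.09) and Chrdl1, at 1.65 to 4.20 CPM against 20.9, 27.3, 26, 23.1 and 20.7 CPM (-2.97 ± 0.15). No library overlapped between regions for these astrocyte genes.

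Of the other cell types, microglia and endothelial genes differed less by the median, and ependymal and tanycyte genes differed more. Microglia genes were called higher in cortex in 7 of 18 cases and in hypothalamus in none (median -0.25), but with libraries scaled by size alone 1 was called in each direction and the median was -0.03. Csf1r, Cx3cr1 and P2ry12, the receptors that mark microglia, differed by -0.28 ± 0.09, -0.38 ± 0.11 and -0.48 ± 0.14, and each lost its call under 1 alternative. Endothelial and pericyte genes were called in each direction in 4 of 24 cases (median 0.01), and Cldn5, for the tight junction claudin of brain vessels, was not called (-0.17 ± 0.23, adjusted p = 0.58, edgeR). Of 24 ependymal and tanycyte genes, 16 were higher in hypothalamus, which borders the third ventricle, and 5 higher in cortex (median 1.46). Foxj1, the master gene of motile cilia, ranged from 3.57 to 5.57 CPM against 0.766, 0.780, 0.829, 0.960 and 0.574 CPM (2.46 ± 0.32). Gpr50, a tanycyte gene, ranged from 22.9 to 44.6 CPM against 0.255, 0.260, 0, 0.720 and 0 CPM (6.66 ± 0.32, and 7.52 without KO cortex library 7). Dio2 and Crym, also known from tanycytes, which handle thyroid hormone, were higher in cortex (-2.31 ± 0.14 and -2.98 ± 0.25).

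Markers of neighbouring tissue that a dissection could hold were set beside these values. Of 14 thalamic genes, 13 were higher in hypothalamus (median 2.65). Tcf7l2 ranged from 218 to 453 CPM against 12.8, 19.8, 21, 16.8 and 17.5 CPM (4.19 ± 0.16), and Prkcd stood at 64.1, 141 and 96.6 CPM in the WT, 86.4, 33.4 and 191 CPM in the het and 79.5 and 37.4 CPM in the KO hypothalamus libraries, against 2.3 to 4.16 CPM in cortex (4.67 ± 0.37). Striatal genes, 6 of 17 higher in hypothalamus and 7 in cortex, summed to 492 to 564 CPM in hypothalamus and 492 to 562 CPM in cortex. Choroid plexus genes summed to 42.4 to 70.3 CPM against 7.40 to 33.6 CPM, with 5 of 8 tested higher in hypothalamus. The largest rise among them was that of Prlr (4.89), described above among the hormone receptors, whose level is part of the hypothalamus sum. Ttr, the defining gene, was at 0 to 3.65 CPM against 2.04, 11.7, 7.74, 0.240 and 26.4 CPM (-2.48 ± 0.69). Ttr lost its call, at -1.67, without KO cortex library 8. Of the pituitary genes only 3 were tested, and Cga, the shared subunit of the glycoprotein hormones, was at 0 to 2.42 CPM in hypothalamus with no count in cortex. Blood and meningeal genes, 10 of 17 higher in hypothalamus, summed to 176.5 to 901 CPM and 129 to 339.5 CPM. Genes of the mitochondrial genome were called higher in cortex in 5 of 10 cases (median -0.20), and none was called with libraries scaled by size alone. The part of these tissues in the results above was not tested.

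Without KO library 8, the counts of called members in the lists changed by at most 2 genes in a direction, and the same held without it, het library 6 and WT library 2 together.

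The region difference was then fitted separately in het (3 against 2 libraries) and in KO mice (2 against 2), which share no library. In het, 4902 genes (33.9%) were called, and in KO 4481 genes (31.0%). Without het cortex library 6 the het count was 3257, and without KO cortex library 7 the KO count was 2942. A total of 3563 genes were called in each, 72.7% of the het calls and 79.5% of the KO calls, and all 3563 went in the same direction. Over all tested genes, which are not independent replicates, Pearson's r of the log2 fold changes was 0.82 and Spearman's rho 0.77. Slc17a6 differed by 4.25 ± 0.20 in het and by 4.10 ± 0.19 in the libraries labelled KO, and Slc17a7 by -5.38 ± 0.37 and -3.29 ± 0.61. Without KO hypothalamus library 8, which left 1 library against 2, the KO value of Slc17a7 was -5.74 and that of Slc17a6 was 4.21.

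**Figure D4:**
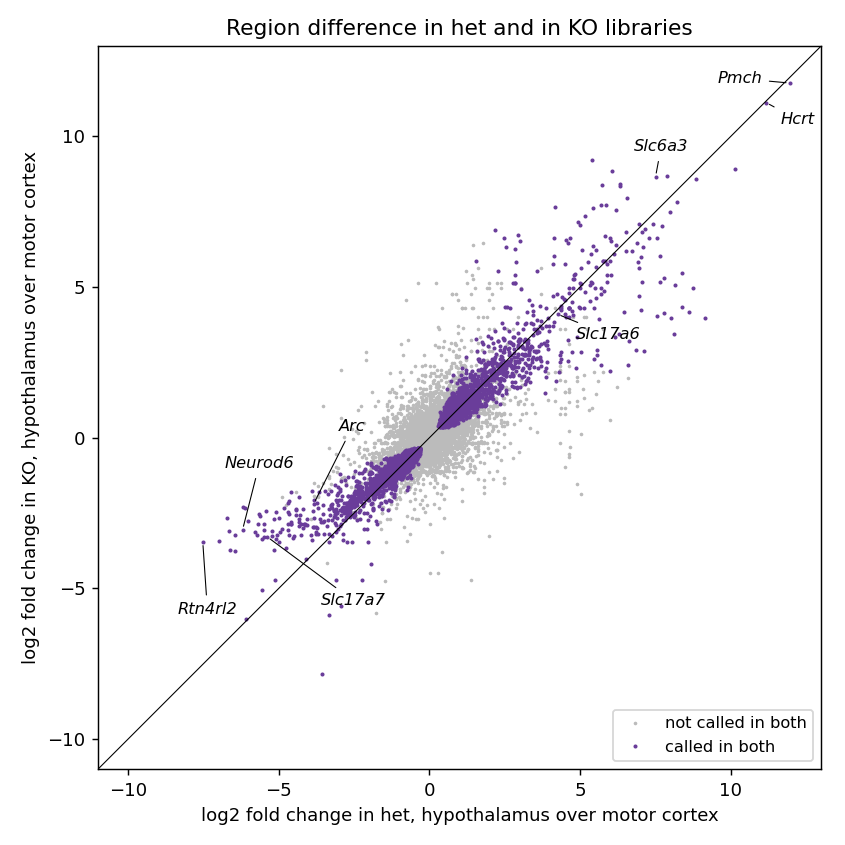
Log2 fold change (hypothalamus over motor cortex) of each tested gene in the KO libraries (vertical axis) against that in the het libraries (horizontal axis), with the line of equal values. Purple points were called in each fit (3563 genes), with values for genes at 0 counts in cortex, such as Pmch, set by the prior count, and several genes high in cortex, such as Neurod6 and Rtn4rl2, lie above the line at the lower left, closer to 0 in KO.

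Whether the region difference itself differed by genotype was asked with an interaction in a model of the 6 groups of region and genotype. Between KO and het it was called for 9 genes (0.0622%), with 604 at an unadjusted p under 0.05. These were Ankrd33b, Ano3, Arc, Igfbp6, Itpka, Kcnh3, Neurod2, Neurod6 and Rtn4rl2, all of them high in cortex and with a smaller region difference in the libraries labelled KO. The difference between the log2 fold changes was 1.64 ± 0.25 for Arc (adjusted p = 1.7e-06, edgeR), 2.62 ± 0.50 for Itpka, 3.14 ± 0.64 for Neurod6, 3.54 ± 0.76 for Neurod2 and 4.05 ± 0.87 for Rtn4rl2. Without KO hypothalamus library 8, the highest hypothalamus library for each of the 9 genes, 1 gene was called (Syt10), none of the 9 among them. Without KO hypothalamus library 7, so that library 8 alone stood for that group, 79 genes were called. Without het cortex library 5, KO cortex library 7 and KO cortex library 8 in turn, the counts were 2, 4 and 1.

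Between KO and WT, where WT had a single cortex library whose spread was assumed to be that of the other groups, the interaction was called for 6 genes (0.0414%), with 660 at an unadjusted p under 0.05. These were Arc, Cplx3, Hdc, Ifih1, Neurod6 and Nxph4. Arc, an immediate early gene whose protein acts at dendrites, ranged from 10.9 to 22.8 CPM in hypothalamus and stood at 260 CPM in the WT, 245 and 200 CPM in the het, and 76.6 and 93.3 CPM in the cortex libraries labelled KO. The cortex libraries labelled KO were thus below the other 3, while the hypothalamus libraries labelled KO, at 14.4 and 22.8 CPM, were within or above the range of the others. The interaction for Arc was 2.29 ± 0.28 (adjusted p = 1.9e-12, edgeR), and it was called in each alternative run for this contrast. Cplx3, a complexin of deep-layer neurons, was at 29.9, 20.5, 26.5, 10.3 and 7.75 CPM in cortex (2.61 ± 0.53), and Nxph4, a neurexophilin gene, at 3.06, 1.30, 1.11, 0.240 and 0 CPM in cortex against 5.59 to 10.8 CPM in hypothalamus (4.55 ± 1.03). Without KO hypothalamus library 8 the 3 calls were Arc, Hdc and Nxph4. Leaving out KO hypothalamus library 7 gave 66 calls, WT hypothalamus library 2 gave 11 and KO cortex library 8 gave 2. The call for Hdc rests on the WT cortex library, which had no count, so that its fitted value depends on the prior count and is no bound.

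**Figure D5:**
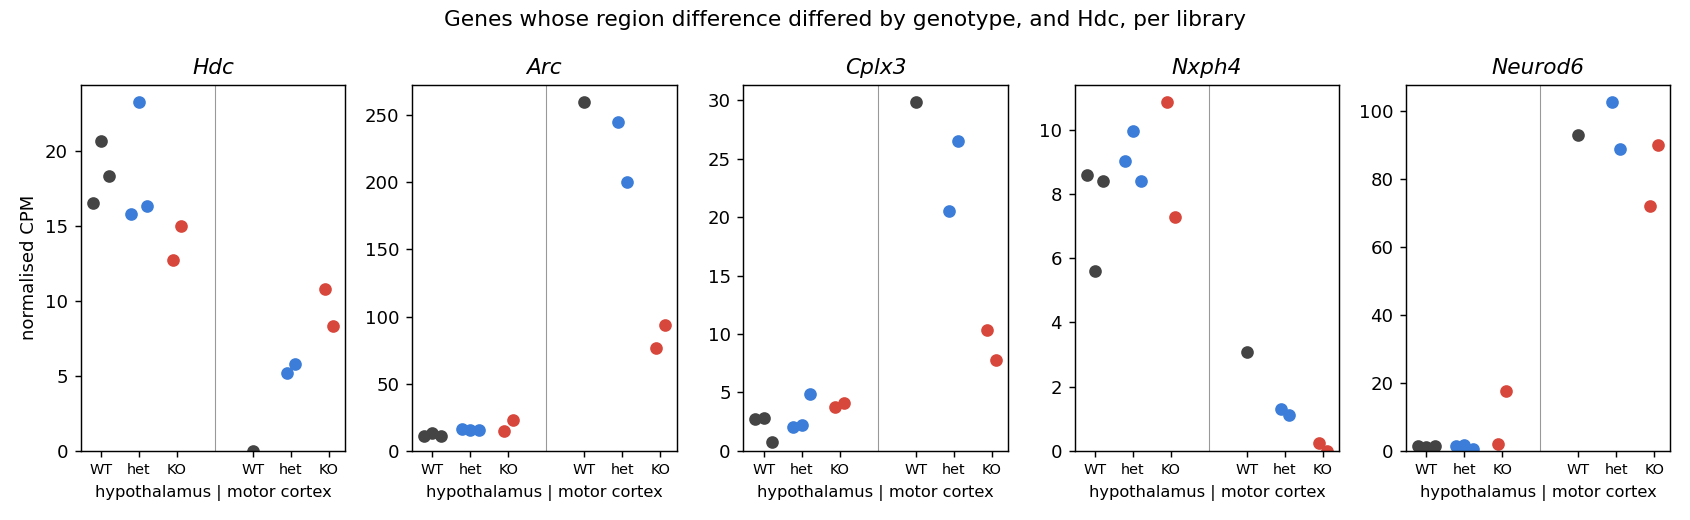
Normalised CPM (vertical axes, each from 0) of Hdc, Arc, Cplx3, Nxph4 and Neurod6 in each library, by genotype within hypothalamus (left of each panel) and motor cortex (right). Arc is at 76.6 and 93.3 CPM in the cortex libraries labelled KO against 200 to 260 CPM in the other cortex libraries, and Hdc rises from 0 in the WT cortex library to 10.8 in 1 labelled KO.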

How the data were processed

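RNA-seq count tables of 13 of the 28 libraries were used. The authors deposited 1 file of whole-number read counts per gene for each library. Per the labels, the study's methods and the submitters' processing notes, 5 ng of RNA per library was amplified without strand information (NuGEN Ovation V2), sequenced as single 50-base reads, trimmed with Trimmomatic 0.32 (reads under 20 bases dropped), cleared of ribosomal RNA with Bowtie2 2.2.3, aligned to GRCm38 with STAR 2.3.1z8, handled with SAMtools 0.1.19 and counted in union mode with HTSeq 0.6.1p1 on Ensembl 75. The strand setting is not given in the sources used here, so overlapping and antisense genes cannot be told apart. Symbols and positions were taken from GENCODE M21. No label says that a library number marks a mouse or that libraries came from separate mice, so p-values measure the spread between libraries, which may in part be technical.

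Rows that name no gene were left out. The libraries held 3732822 to 4901109 counts on genes. Genes above 1 CPM in at least 2 libraries were fitted with edgeR 4.0.16 in R 4.3.3 (TMM, likelihood ratio test, edgeR's default prior count). Region and genotype were the terms of the main fit, and interactions were fitted in a model of the 6 groups. All p-values were Benjamini-Hochberg adjusted over all genes tested. A gene with no count in a region was given a lower bound at a floor of 3 counts over that region's libraries, and with 1 to 3 counts a ratio with an exact 95% interval. Intervals and floors cover counting error only. The tests were also run on simulated counts in which few genes differed. That setting is unlike these data and cannot check the scaling.

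The gene lists (26 lists, 745 entries) and the comparison itself were chosen with earlier results of these data known. Named genes were the 12 with the largest folds in each direction among called genes, without overlap between regions and with a mean of at least 10 CPM in the higher region, the 5 of smallest p per interaction, Hdc, and set members of each list with its called members of largest difference. Adcyap1, Ano3, Baiap2, Ifih1, Igfbp6, Nppc, Npvf, Ppp1r9a, Prok2 and Syt10 were named because a count or motif match needed them, after their values were seen. Alternatives were the edgeR quasi-likelihood test, DESeq2 1.42.0, other scalings and filters, other sets of libraries, a replicate block and leaving out each library. Some members of the lists are not reported here by name.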

Additional observations from a re-analysis of the deposited data

Results flagged for a closer look

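For each gene named above with at least 10 counts in its highest library, the highest or lowest library of a region was set against the others by the gap to its nearest neighbour divided by the whole range, and called apart above Dixon's 95% critical value. Of 236 groups checked, 38 stood apart. Chance would give about 1 in 20 for independent, normally distributed values. These groups share the same libraries, and some genes were named for their interaction calls. The count is therefore a description and no test against chance. In 24 of the 38 the library was KO hypothalamus 8 as the highest of its region. The gap as a share of the range is given for each gene.

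KO hypothalamus 8 was the highest hypothalamus library for Ankrd33b (0.915), Ano3 (0.869), Arc (0.568), Baiap2 (0.546), Camk2a (0.887), Cckbr (0.620), Cobl (0.565), Crym (0.622), Dkkl1 (0.827), Egr3 (0.798), Htr2a (0.625), Itpka (0.719), Kcnh3 (0.923), Lamp5 (0.854), Neurod2 (0.928), Neurod6 (0.926), Nptx1 (0.595), Npy (0.592), Nrgn (0.919), Robo3 (0.724), Rtn4rl2 (0.921), Slc17a7 (0.812), Tbr1 (0.882) and Vipr1 (0.902). Most of these genes are high in motor cortex, and their levels in KO hypothalamus 8 lay between those of the other hypothalamus libraries and those of cortex. The same library was the lowest for Agt (0.562). What sets this library apart was not tested.

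Het hypothalamus 6 was the highest for Mbp (0.640), Pvalb (0.552) and Sox10 (0.576), 2 of which (Mbp and Sox10) are oligodendrocyte genes, and the lowest for Avp (0.545). Het hypothalamus 5 was the highest for Gabre (0.553), Gpr50 (0.676), Isl1 (0.568) and Nr5a1 (0.595) and the lowest for Mfge8 (0.541). WT hypothalamus 3 was the highest for Fbxl21 (0.542). Among the cortex libraries, KO cortex 7 was the highest for Egr3 (0.746) and Nr3c2 (0.711), and het cortex 5 for Lhx6 (0.849).

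The region difference differed between KO and het by the interaction test (log2, KO minus het) for Ankrd33b (2.46), Ano3 (1.64), Arc (1.64), Igfbp6 (2.47), Itpka (2.62), Kcnh3 (2.88), Neurod2 (3.54), Neurod6 (3.14) and Rtn4rl2 (4.05). None of these 9 was called without KO hypothalamus 8. Between KO and WT it differed for Arc (2.29), Cplx3 (2.61), Ifih1 (2.07), Neurod6 (3.06), Nxph4 (4.55) and Hdc (-8.84), where the fitted value for Hdc depends on the prior count, since the WT cortex library had no count, and is no bound.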

How the results depend on the processing

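The number of genes called between the regions ran from 6612 to 8460 over all alternatives. The quasi-likelihood test called 7315 genes, 7288 of them among the 7464 of the likelihood ratio test, and DESeq2 6627, of which 6612 were. Scaling by size alone gave 6245 genes higher in hypothalamus and 2215 higher in cortex, and 155 calls changed sign. No named gene that was called changed direction in any alternative run for it. Without KO hypothalamus 8, het hypothalamus 6 and WT hypothalamus 2 together, an alternative chosen after seeing the data, 7331 genes were called, 6900 of them among the 7464.

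The interactions depended on single libraries. For KO against het, 9 genes became 1 with the quasi-likelihood test and 1 with DESeq2 (Arc in each), 15 with no filter on low counts, 4 with all 28 libraries in the fit, and 0 without KO hypothalamus 8 and het hypothalamus 6 together (614 at an unadjusted p under 0.05 in edgeR). Leaving out 1 library at a time gave 1 to 79. For KO against WT, 6 genes became 2 with the quasi-likelihood test, 1 with DESeq2 and 2 with all 28 libraries, and leaving out 1 library gave 2 to 66. Leaving out 1 library gave 3257 (without het cortex 6) to 5095 (without het hypothalamus 6) calls within het, and 2942 (without KO cortex 7) to 4284 (without KO hypothalamus 8) within KO.

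With the library number as a replicate block, 7104 genes were called, 6879 of them among the 7464, the KO against het interaction gave 16, with 6 of the 9, and KO against WT gave 6, with 3 of the 6 (Arc, Hdc and Nxph4). Deviations of same-numbered libraries correlated at -0.018, -0.006, 0.041 and 0.041, under 0.1, and the numbers were not used as pairs. With 2 cortex libraries per genotype these values mirror each other, so the check is weak, and whether numbers mark mice is not settled by the labels. Depth limits the genes at or near 0 counts in a region, whose folds are bounds or ratios with wide intervals, and 1 WT cortex library limits each contrast with WT.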
